A study of Arabidopsis thaliana with 11 samples.

Results

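The libraries of day 4 of floral induction were compared with those of day 0, the inflorescence before induction, across all genes of a deposited RNA-seq table. The comparison rests on 6 of the 11 libraries of the series, 3 for each day, and on the 18412 of 20971 genes that reached 1 FPKM (reads of a transcript scaled by its length and by the size of the library) in at least 2 of these 6 libraries. The plants were Arabidopsis thaliana of the Landsberg ecotype with the genotype pAP1:AP1-GR ap1-1 cal-1. Both alleles and the transgene were thus present in every library. Plants stood in long days, and RNA came from whole inflorescences, pooled for each replicate. The day 0 libraries were from untreated plants, and the day 4 libraries from plants that had received a dexamethasone solution with ethanol and Silwet L-77 every day. The labels give dexamethasone at 2 mM, whereas the study's methods and the series design give micromolar concentrations.

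AP1 and CAL are related MADS-domain transcription factors that give a young meristem the identity of a flower. In ap1 cal plants the meristems do not become flowers and multiply instead, which leaves a head of inflorescence-like meristems. AP1-GR joins AP1 to the steroid-binding part of the glucocorticoid receptor, and the fusion acts only once dexamethasone lets it enter the nucleus. Because it is driven by the AP1 promoter, it is made where AP1 would be made, and many flowers then start together. In a young flower LFY, with AP1, switches on the organ identity genes. Of these, AP3 and PI (class B) specify petals and stamens, AG (class C) specifies stamens and carpels, and the SEP proteins join all of these in complexes.

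No library was taken from untreated plants after day 0, so effects of the solution, of dexamethasone itself, of plant age and of floral stage cannot be told apart. All material was collected at the same time of day. Values from whole inflorescences cannot separate a larger share of cells that express a gene from more RNA per cell. The AP1 values hold transcripts of the fusion gene and of the mutant ap1-1 gene together, and CAL is itself mutant in these plants. Libraries of 1 day correlated across genes at 0.991 to 0.993 (day 0) and 0.990 to 0.992 (day 4), and libraries of different days at 0.963 to 0.972. The pooled SD of log2(FPKM + 1) was 0.157 at day 0 and 0.161 at day 4. Read depth is unknown, and p-values cover the spread between replicates that the series design calls biological.

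Most genes differed little between the days in these normalized values. The difference was under 0.5 on the log2(FPKM + 1) scale for 89.0% of the genes tested, and its median was -0.01. Because the deposited columns had been normalized to each other, a median near 0 follows largely from that step. A gene was called when limma's adjusted p was under 0.05 and the means differed by at least 1 on this scale, a 2-fold difference in FPKM + 1. This held for 502 genes (2.73%), of which 359 (1.95%) rose and 143 (0.777%) fell. A further 4526 genes passed the adjusted p without the 2-fold minimum, which made 27.3% of all genes tested. In 355 of the 359 genes that rose, and in 141 of the 143 that fell, the lowest library of the higher day lay above the highest library of the lower day. Among all tested genes such separation was common, with 21.8% higher and 23.4% lower at day 4.

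Genes that rose and genes that fell started from different levels, in part because of the rule for calls. A gene with a mean under 1 FPKM at day 0 cannot fall by 1 on the log2(FPKM + 1) scale, whereas it can rise. Genes that rose had a median day 0 mean of 1.78 FPKM, against 17.4 FPKM over all genes tested, and 148 of the 359 were under 1 FPKM at day 0. Genes that fell had a median of 9.66 FPKM at day 0 and 3.40 FPKM at day 4. Rises were also larger, though the day 0 level bounds how far a gene can fall on this scale. The log2 difference was at least 2 for 82 genes that rose and 12 that fell, and at least 3 for 27 and 1. For genes near 0 FPKM the log2 difference depends on the added 1, so their FPKM values are given beside it. In each day 0 column the lowest entry, 0.0091 FPKM in replicates 1 and 2 and 0.0082 FPKM in replicate 3, was shared by 776 to 821 genes and is not a measured level. In the day 4 columns, 492 to 567 genes are listed at 0.

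**Figure D1:**
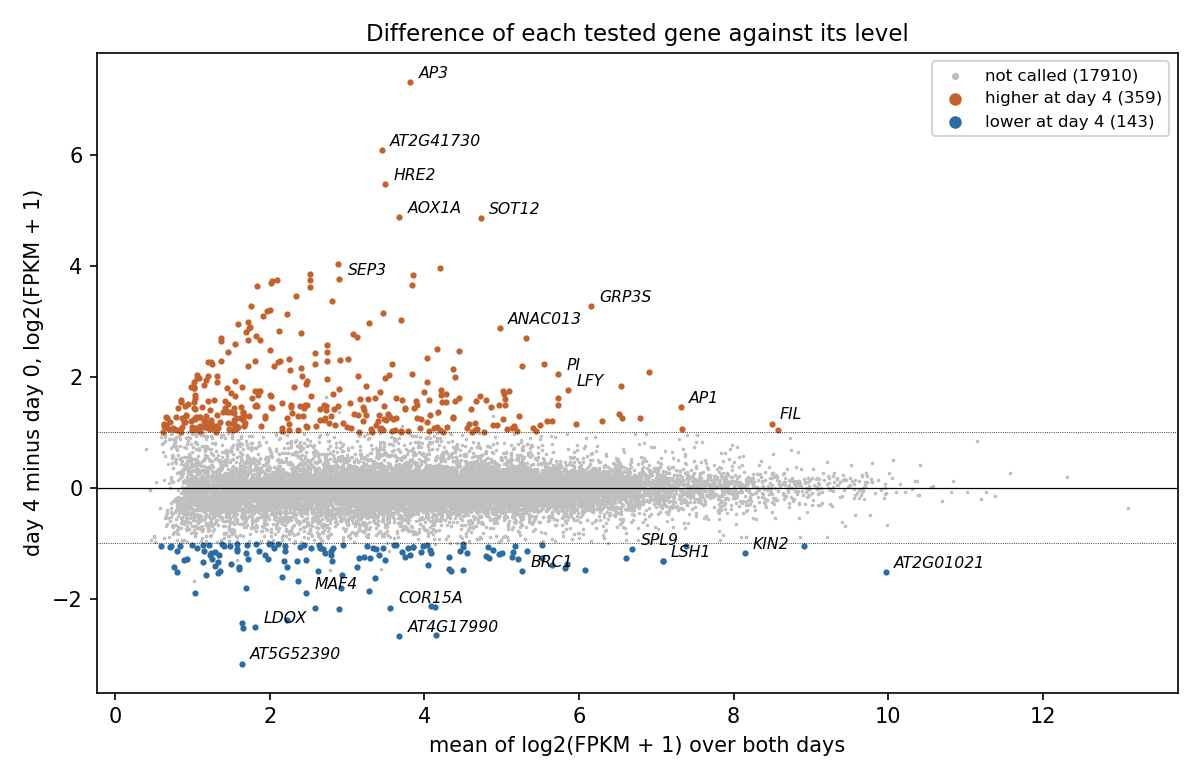
Difference between day 4 and day 0 (y axis, log2(FPKM + 1)) against the mean level over both days (x axis, the same scale) for the 18412 genes tested. Orange points are the 359 genes called higher and blue points the 143 called lower; dotted lines mark the 2-fold minimum, and AP3 lies highest at 7.30.

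AP1 (AT1G69120, chr1:25982294-25986349 in TAIR10.1), the gene of the inducible fusion, was already expressed before induction and rose. It stood at 91.1, 93.4 and 101 FPKM in day 0 replicates 1, 2 and 3 and at 266, 274 and 248 FPKM at day 4. The groups were far apart (log2 difference 1.46 ± 0.063, adjusted p = 2.11e-06). CAL had 52.6, 42.4 and 49 FPKM at day 0 and 37.2, 40.6 and 35.4 FPKM at day 4, a small difference below the 2-fold minimum (log2 difference -0.33 ± 0.087, adjusted p = 0.0217).

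LFY, the regulator that acts with AP1 in floral meristem identity, rose from 28, 31.8 and 32 FPKM to 106, 105 and 105 FPKM. The day 4 values were within 2 FPKM of each other, and the difference was 1.75 ± 0.063 (adjusted p = 8.07e-07). UFO, an F-box protein and cofactor of LFY, was higher in every day 4 library at 32.2, 33.9 and 29.2 FPKM than at day 0 with 19.8, 20.5 and 22 FPKM, without reaching the 2-fold minimum (0.59 ± 0.072). FUL, a close relative of AP1, had 129.8 FPKM at day 0 and 135 FPKM at day 4 (log2 difference 0.06 ± 0.081, adjusted p = 0.589). LMI1 and LMI2, which act beside LFY, differed by -0.06 ± 0.11 and 0.14 ± 0.067 with adjusted p of 0.729 and 0.148. Of the 7 tested genes on a list of floral meristem identity, AP1 and LFY were thus the 2 that rose, against 1.95% of all genes.

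The class B gene AP3 (AT3G54340, chr3:20119140-20121314) had the largest rise of all genes tested. It was at 0.184, 0.00909 and 0.175 FPKM at day 0, where replicate 2 was at its column's lowest value, and at 183, 177 and 168 FPKM at day 4 (log2 difference 7.30 ± 0.081, adjusted p = 5.49e-10). Its partner PI started from a different place. PI was already at 20.2, 26.8 and 28.4 FPKM before induction and reached 103, 107 and 110.4 FPKM (log2 difference 2.05 ± 0.11, adjusted p = 6.91e-06). AP3 was therefore near 0 while PI was present at day 0, and at day 4 their means were 176 ± 7.54 and 106 ± 3.92 FPKM (SD, n = 3).

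AG, the class C gene, was near 0 at day 0 with 0.111, 0.0945 and 0.161 FPKM and stood at 13.8, 15.1 and 12.5 FPKM at day 4 (log2 difference 3.72 ± 0.10, adjusted p = 2.2e-07). The day 4 level of AG was below that of both class B genes in every library. Its clade members that act later in carpels and ovules stayed low, with SHP1 at 0.64, SHP2 at 0.0627 and STK at 0.152 FPKM at day 4, and SHP2 and STK did not pass the filter.

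The SEP genes encode the partner proteins of these factors. SEP3 rose from 0.835, 1.11 and 1.13 FPKM to 24.4, 27.8 and 27.1 FPKM (log2 difference 3.76 ± 0.093, adjusted p = 1.13e-07), and SEP2 from 1.75, 3.7 and 3.77 FPKM to 50.3, 47.9 and 48.8 FPKM (log2 difference 3.66 ± 0.19, adjusted p = 5.21e-06). SEP1 rose from 1.47, 2.15 and 2.0 FPKM to 14.5, 15.1 and 14.1 FPKM (log2 difference 2.45 ± 0.10, adjusted p = 1.97e-06). All of these 3 genes were at a few FPKM at most at day 0. SEP4 differed in this respect. It had 26.9, 27.8 and 28.8 FPKM before induction and 38.3, 40.01 and 40.7 FPKM at day 4, which passed the adjusted p and missed the 2-fold minimum (log2 difference 0.50 ± 0.056, adjusted p = 0.000434).

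AP2, which acts in sepal and petal identity and keeps AG out of the outer whorls, was just short of the minimum. Its libraries were at 40.9, 37.5 and 42 FPKM and 80.03, 79.96 and 79.2 FPKM (log2 difference 0.97 ± 0.058, adjusted p = 1.16e-05). AGL6, related to the SEP genes, was lower at day 4 with 19.8, 20.5 and 24.1 FPKM against 42.3, 38.4 and 38.9 FPKM (-0.87 ± 0.082). In all, 6 of 10 tested genes of the organ identity list rose, against 1.95% of all genes, and none fell, with a list median of 2.25 against -0.01 over all genes. Among 36 tested genes annotated as MADS-domain factors, 8 rose and MAF4 fell, while the family median was -0.14. The eighth gene that rose was AGL15, known from embryos, from 2.37 ± 0.35 to 15.7 ± 0.997 FPKM (2.31 ± 0.10); like all members named for families below, it was picked after its values had been seen.

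**Figure D2:**
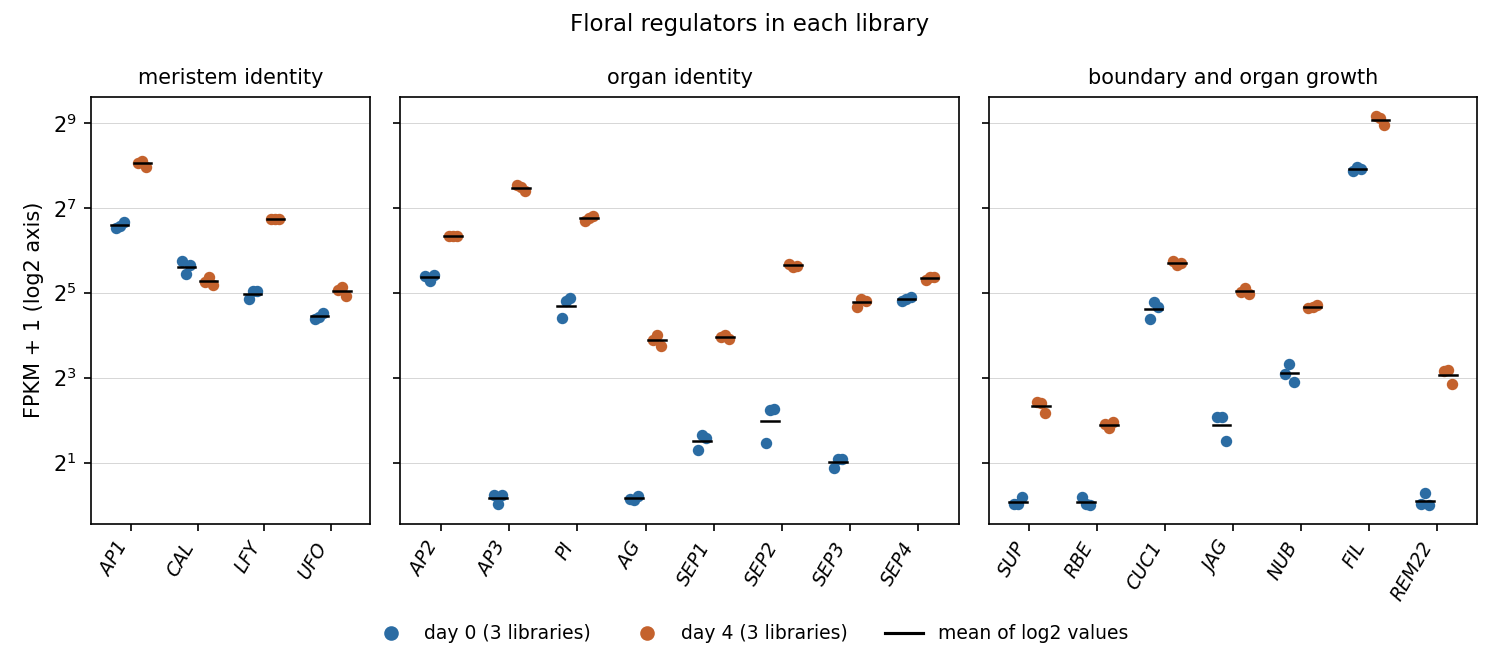
FPKM + 1 (log2 axis) of floral regulators in each of the 3 day 0 (blue) and 3 day 4 (orange) libraries, with black bars at the mean of the log2 values. AP3, AG, SUP, RBE and REM22 lie at the bottom of the axis at day 0, whereas PI, LFY, AP1 and FIL were expressed on both days.

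Genes that set boundaries inside the flower rose from near 0. SUP, a zinc finger factor that marks the border between stamens and carpels, was at 0.00909, 0.00909 and 0.133 FPKM at day 0 and 4.37, 4.3 and 3.46 FPKM at day 4 (log2 difference 2.26 ± 0.13, adjusted p = 1.04e-05). RBE, a related factor needed for petals, went from 0.145, 0.00909 and 0.00818 FPKM to 2.73, 2.5 and 2.85 FPKM (log2 difference 1.81 ± 0.13, adjusted p = 3.59e-05). Both had at most 1 day 0 library above its column's lowest value. CUC1, which separates organs from one another, was expressed on both days, at 19.8, 26.5 and 24.4 FPKM and 53, 49.4 and 50.6 FPKM (log2 difference 1.09 ± 0.10, adjusted p = 0.000129). Without day 0 replicate 1 its difference was 0.97 and missed the 2-fold minimum. CUC2 differed by 0.77 ± 0.081 and CUC3 by -0.35 ± 0.10, so the 3 CUC genes did not have the same sign. Of 14 tested genes of the boundary list, 3 rose, against 1.95% of all genes, and none fell. The list median was 0.05.

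Of the other members of the boundary list, 3 more were higher and 6 lower at an adjusted p under 0.05 without the minimum. Over all genes 27.3% passed this adjusted p, called genes included. PTL and LOF1 were higher by 0.29 ± 0.075 and 0.20 ± 0.065, BOP1 and LOB differed by -0.40 ± 0.068 and -0.46 ± 0.083, and LAS (0.19 ± 0.074) and BOP2 (-0.08 ± 0.058) did not pass the adjusted p. LSH3 and LSH4 mark the borders of lateral organs. LSH4 had 112, 119 and 118 FPKM at day 0 and 58.7, 59.1 and 55.6 FPKM at day 4 (-1.0 ± 0.054), just short of the minimum, and LSH3 differed by -0.73 ± 0.078. Their relatives LSH1 and LSH2 fell. LSH1 went from 203, 216 and 217 FPKM to 86.3, 77.4 and 91.1 FPKM (log2 difference -1.31 ± 0.07, adjusted p = 6.69e-06), and LSH2 from 12.9, 13.7 and 12.6 FPKM to 3.95, 2.57 and 2.68 FPKM (log2 difference -1.80 ± 0.13, adjusted p = 3.04e-05). The 7 tested genes of this family, which share the DUF640 domain, had a median of -0.73. JLO, a LOB-domain gene of boundaries, differed by -0.90 ± 0.084, and among 14 tested LOB-domain genes LBD39 (69.6 to 28.7 FPKM), LBD18 (9.46 to 3.56 FPKM) and LBD19 (58.4 to 26 FPKM) fell and none rose. Over all genes, 0.777% fell.

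Regulators of organ outgrowth were among the genes that rose. JAG, which promotes growth of lateral organs, was at 3.2, 3.22 and 1.85 FPKM before induction and 31.1, 33.6 and 30.3 FPKM at day 4 (log2 difference 3.14 ± 0.15, adjusted p = 3.19e-06). Its paralogue NUB, which acts with it in stamens and carpels, rose from 7.53, 8.98 and 6.48 FPKM to 23.8, 24.3 and 25.2 FPKM (log2 difference 1.56 ± 0.10, adjusted p = 1.89e-05). FIL, a YABBY factor of the lower organ side, had the largest gain in mean FPKM among called genes. It stood at 232, 248 and 238 FPKM at day 0 and 571, 548 and 490.5 FPKM at day 4 (log2 difference 1.16 ± 0.07, adjusted p = 1.27e-05). YAB3, its close relative, was higher by 0.64 ± 0.12 without reaching the minimum. INO, the YABBY gene of the ovule integument, fell from 2.56 ± 0.248 to 0.57 ± 0.0285 FPKM (-1.18 ± 0.12).

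Other growth genes moved by less. ANT, an AP2-domain factor of organ growth, was at 126, 124 and 130.2 FPKM and 215, 218 and 190.0 FPKM (0.71 ± 0.066), and KLU, a cytochrome P450 of the same process, differed by 0.70 ± 0.074. AIL7, a relative of ANT expressed in the shoot meristem, fell from 42.8, 41.9 and 45 FPKM to 18.3, 18.2 and 16 FPKM (log2 difference -1.26 ± 0.069, adjusted p = 6.91e-06). Of 29 tested growth genes 2 rose and 1 fell, against 1.95% and 0.777% of all genes. At an adjusted p under 0.05 without the 2-fold minimum, 9 more were higher and 2 more lower, where 27.3% of all genes passed this p. PRS, a WOX homeobox factor of lateral organ margins, rose from 6.53 ± 0.298 to 17.3 ± 1.41 FPKM (1.28 ± 0.078). NGA1, a B3 factor of the style and of leaf margins, rose from 1.76, 2.47 and 1.95 FPKM to 7.0, 6.68 and 6.64 FPKM (log2 difference 1.35 ± 0.11, adjusted p = 6.23e-05). NGA2 was higher by 0.51 ± 0.15, below the minimum, while NGA3 and NGA4 differed by -0.14 ± 0.18 and -0.18 ± 0.14. KNATM, a KNOX protein without a homeodomain, fell from 9.24 ± 0.337 to 3.72 ± 1.01 FPKM (-1.14 ± 0.15), with -0.95 when day 4 replicate 1 was left out.

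Genes of the REM group of B3 factors are named for their expression in reproductive meristems. REM22 was at or near its column's lowest value at day 0, with 0.00909, 0.225 and 0.00818 FPKM, and at 7.85, 8.06 and 6.23 FPKM at day 4 (log2 difference 2.95 ± 0.14, adjusted p = 3.19e-06). AT5G57720, another B3-domain gene, rose from 0.29 ± 0.00593 to 10.1 ± 1.29 FPKM (3.09 ± 0.11). REM35 and REM36 differed by -0.72 ± 0.088 and -0.85 ± 0.077, under the minimum. The group thus held genes that rose and genes that were lower. Of 42 tested B3-domain genes 3 were called higher and none lower, against 1.95% and 0.777% of all genes. BLH2 and BLH4, also known as SAW1 and SAW2, are BEL1-like homeodomain genes of leaf margins. They rose from 3.38 to 16.6 FPKM and from 4.46 to 10.7 FPKM, and BLH11 from 0.562 to 4.07 FPKM, while the 12 tested members of the family had a median of -0.24. ATH1, a homeodomain gene that acts in the shoot meristem and its boundaries, rose from 18.8, 16.7 and 14 FPKM to 35.7, 36.6 and 32.6 FPKM (log2 difference 1.05 ± 0.10, adjusted p = 0.000179), with 0.94 when day 0 replicate 3 was left out.

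WUS, CLV3, STM and BP, core genes of the shoot meristem, did not pass the adjusted p. WUS, which maintains stem cells, was at 5.1, 5.7 and 6.74 FPKM at day 0 and 6.72, 5.59 and 7.52 FPKM at day 4, and the libraries of the 2 days overlapped (log2 difference 0.15 ± 0.12, adjusted p = 0.389). CLV3, the peptide that restrains WUS, had 2.79, 3.0 and 2.8 FPKM and 1.2, 2.19 and 2.55 FPKM (log2 difference -0.40 ± 0.17, adjusted p = 0.112). STM differed by -0.17 ± 0.066 (adjusted p = 0.0942) and BP by 0.09 ± 0.056 (adjusted p = 0.254). Of 17 tested genes of meristem maintenance ATH1 rose and KNATM fell, against 1.95% and 0.777% of all genes. The list median was -0.05. At an adjusted p under 0.05 without the minimum 5 more were lower, from KNAT2 (-0.50 ± 0.068) and PNF (-0.47 ± 0.069) to PNY (-0.24 ± 0.052), and ULT1 (0.32 ± 0.072) and KNAT6 (0.24 ± 0.071) were higher. That adjusted p was passed by 27.3% of all genes. These tests do not show that the levels of the other genes were equal.

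Genes of flowering time and inflorescence identity were lower at day 4. Of 24 tested, 4 fell, against 0.777% of all genes, and none rose. A further 11 were lower and 1 was higher at an adjusted p under 0.05 without the minimum, and the list median was -0.47. The share of all genes that passed this p was 27.3%, called genes included. SPL9 and SPL15 are targets of miR156 that promote the change from the juvenile to the adult phase and flowering. SPL9 fell from 143, 147 and 159.9 FPKM to 70.1, 66.8 and 71 FPKM (log2 difference -1.10 ± 0.06, adjusted p = 6.91e-06), and SPL15 from 99.5, 90.8 and 86.8 FPKM to 34.5, 36.3 and 29.3 FPKM (log2 difference -1.44 ± 0.087, adjusted p = 1.2e-05). TOE1 and TOE3, AP2-type factors targeted by miR172, also fell. TOE1 went from 36.3, 29.4 and 29.6 FPKM to 14, 12.8 and 14.5 FPKM (-1.14 ± 0.091) and TOE3 from 19.5, 15.2 and 16.7 FPKM to 5.19, 4.62 and 4.73 FPKM (log2 difference -1.63 ± 0.10, adjusted p = 1.15e-05). AP2, of the same group, was higher at day 4, as given above.

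FD, the bZIP partner of FT in the meristem, was at 326, 302 and 309 FPKM before induction and 166, 172 and 151 FPKM at day 4, a difference just under the minimum (log2 difference -0.94 ± 0.065, adjusted p = 3.04e-05). The MADS genes that AP1 is known to repress were lower without reaching it. SOC1 differed by -0.56 ± 0.089, AGL24 by -0.76 ± 0.056 and SVP by -0.73 ± 0.065, and their day 4 means were 94.2, 61.4 and 56.8 FPKM. TFL1, which keeps the shoot from becoming a flower, had 37.4, 36.1 and 37.4 FPKM and 27.2, 26 and 35.6 FPKM (log2 difference -0.33 ± 0.11, adjusted p = 0.0505). MAF4, a relative of the floral repressor FLC, fell from 10.3, 10.3 and 8.38 FPKM to 1.49, 2.19 and 1.97 FPKM (log2 difference -1.89 ± 0.12, adjusted p = 1.89e-05). BRC1, a TCP factor that arrests axillary buds, fell from 64.9, 68.4 and 56.8 FPKM to 17.4, 25.4 and 22.9 FPKM (log2 difference -1.5 ± 0.13, adjusted p = 9.08e-05). BRC2 did not pass the filter, and HB21 and HB40, which act after BRC1 in buds, were higher by 0.57 ± 0.16 and 0.71 ± 0.15, below the minimum.

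**Figure D3:**
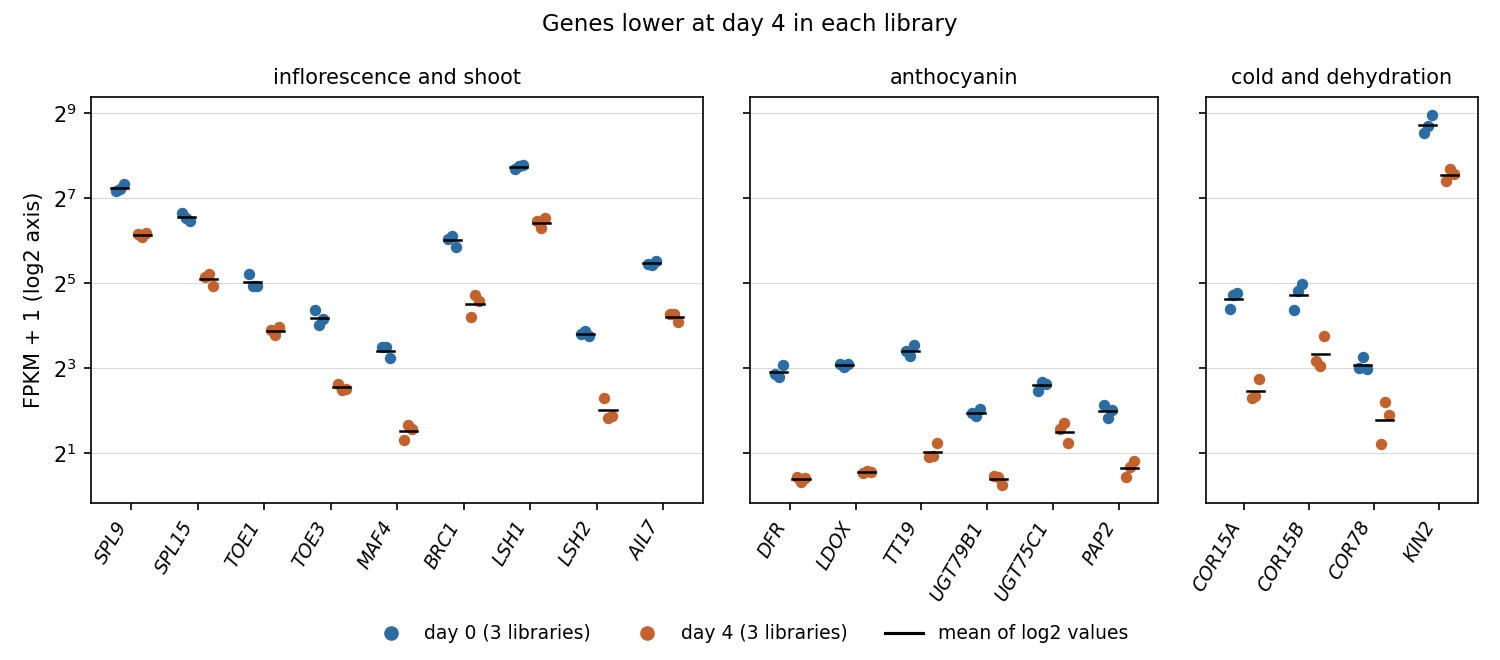
FPKM + 1 (log2 axis) of genes that fell, in each of the 3 day 0 (blue) and 3 day 4 (orange) libraries, with black bars at the mean of the log2 values. In all 19 genes the day 4 libraries lie below the day 0 libraries, and DFR, LDOX, UGT79B1 and PAP2 are under 1 FPKM at day 4.

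After AP3, the next 3 genes by the size of the rise were not floral regulators. AT2G41730, a gene without a description in the table, went from 0.161, 0.443 and 0.377 FPKM to 77.8, 85.9 and 103 FPKM (log2 difference 6.08 ± 0.12, adjusted p = 2.57e-08). HRE2, an ethylene response factor known from oxygen shortage, rose from 0.666, 0.443 and 0.924 FPKM to 56.1, 69.6 and 97 FPKM (log2 difference 5.46 ± 0.18, adjusted p = 5.69e-07). AOX1A, the alternative oxidase of the mitochondrial electron transport chain, rose from 0.935, 1.2 and 1.97 FPKM to 63.6, 59.6 and 80.1 FPKM (log2 difference 4.87 ± 0.16, adjusted p = 5.45e-07). In none of these 3 genes did a day 0 library come near a day 4 library.

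AOX1A is the usual marker of mitochondrial retrograde signalling, by which a disturbed mitochondrion alters gene expression in the nucleus. The NAC factors ANAC013 and ANAC017 are anchored in membranes and carry this signal, and ANAC013 binds a promoter element known as the mitochondrial dysfunction motif. Of 18 tested genes on a list of mitochondrial stress genes, 13 rose, against 1.95% of all genes, and none fell. The list median was 1.90 against -0.01 over all genes. The summed level of the list was 88.7 to 100.1 FPKM in the day 0 libraries and 513 to 595 FPKM in the day 4 libraries. The list was drawn up with earlier results of these libraries known and is not independent evidence of its direction.

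Among the regulators of this response, ANAC013 rose from 11, 10.5 and 10.3 FPKM to 82.3, 81 and 89.4 FPKM (log2 difference 2.88 ± 0.061, adjusted p = 3.73e-08). ANAC017, which is activated as a protein, was at 33.4 and 39.1 FPKM (log2 difference 0.22 ± 0.065, adjusted p = 0.0345), and ANAC053 differed by 0.27 ± 0.074. Among the proteins of the respiratory chain, AOX1D rose from 0.00909, 0.00909 and 0.0791 FPKM to 3.42, 1.58 and 0.935 FPKM (log2 difference 1.44 ± 0.27, adjusted p = 0.00549), with day 4 libraries that spread widely. NDB4, an alternative NADH dehydrogenase, rose from 0.0882, 0.00909 and 0.0927 FPKM to 1.75, 2.67 and 4.13 FPKM (log2 difference 1.81 ± 0.21, adjusted p = 0.000526). NDB2, NDA2 and NDA1 differed by 0.73 ± 0.15, 0.49 ± 0.089 and -0.04 ± 0.18, and none of these was called.

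Other members encode proteins in or near mitochondria. OM66, an outer membrane protein, rose from 1.02, 0.744 and 1.09 FPKM to 9.41, 9.96 and 6.13 FPKM (log2 difference 2.26 ± 0.17, adjusted p = 4.23e-05). UPOX, a marker of oxidative stress in mitochondria, rose from 15.9, 15.5 and 18.7 FPKM to 62.9, 71 and 112 FPKM (log2 difference 2.19 ± 0.18, adjusted p = 9.02e-05). HSP23.5, a small heat shock protein, rose from 0.581, 0.676 and 0.265 FPKM to 17.3, 19.1 and 26 FPKM (log2 difference 3.85 ± 0.16, adjusted p = 1.92e-06). Of 10 other heat shock genes, tested on a list of their own, none was called.

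The members that modify small molecules rose as well. SOT12, a sulphotransferase, went from 3.74, 3.54 and 4.54 FPKM to 132, 147 and 144 FPKM (log2 difference 4.85 ± 0.085, adjusted p = 1.39e-08). UGT74E2, which joins glucose to indole-3-butyric acid, went from 0.623, 1.03 and 0.808 FPKM to 31.6, 26.6 and 27.6 FPKM (log2 difference 4.03 ± 0.11, adjusted p = 1.75e-07). UGT74D1, another auxin glucosyltransferase, rose from 4.68 ± 0.605 to 21.4 ± 2.15 FPKM. The cytochrome P450 gene CYP81D8 rose from 0.251, 0.195 and 0.198 FPKM to 9.02, 7.33 and 6.41 FPKM (log2 difference 2.81 ± 0.13, adjusted p = 3.19e-06), and the glutathione transferase genes GSTU24 and GSTU25 from 1.5 to 5.67 FPKM and 0.0409 to 2.11 FPKM. GSTU24 and GSTU25 lie side by side in the genome and are similar in sequence, so how reads were shared between them is uncertain.

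**Figure D4:**
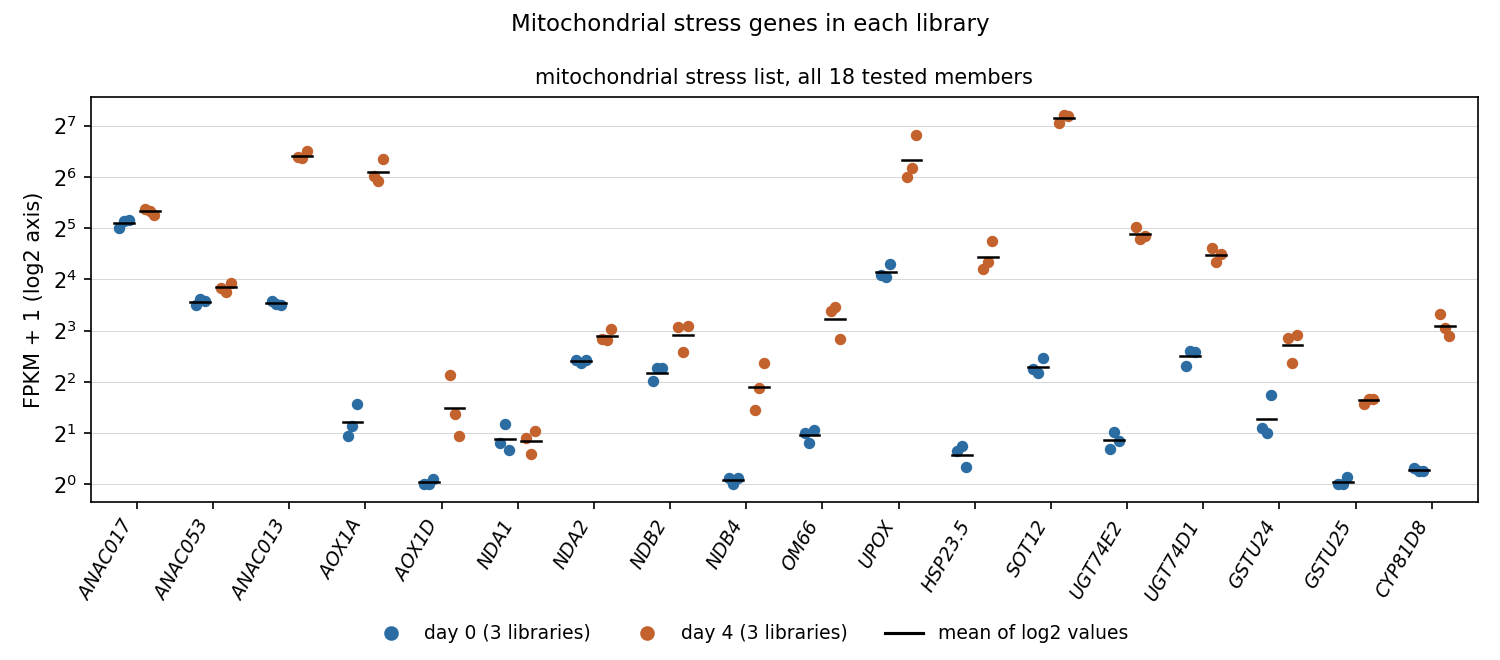
FPKM + 1 (log2 axis) of the 18 tested mitochondrial stress genes in each of the 3 day 0 (blue) and 3 day 4 (orange) libraries, with black bars at the mean of the log2 values. The 13 genes that rose include AOX1A, SOT12 and ANAC013, while ANAC017, ANAC053, NDA1, NDA2 and NDB2 were not called.

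The mitochondrial dysfunction motif was searched in the 500 bases before the annotated start of each gene, for 18334 tested genes with a position in the RefSeq annotation of TAIR10.1. It was written as CTTGNNNNNCAAG or CTTGNNNNNCACG on either strand, so that CGTGNNNNNCAAG counts as the latter on the other strand. It was found before 306 of the 18334 genes (1.67%), before 25 of 357 genes that rose (7.0%) and before 2 of 142 that fell (1.41%). Within the mitochondrial stress list it stood before 6 of the 18 tested genes (33.3%), 3 of them among the 13 that rose (23.1%) and 3 among the 5 that were not called. Among the 20 genes with the largest rise it stood before 5, and before AT2G04050 and AT4G12735 it stood 2 times. Of 28 matches before genes that rose, 26 began within 200 bases of the start (92.9%), against 39.9% of the 316 matches before all tested genes. The median distance was 108.5 bases for genes that rose and 239 bases overall. A match is a description of the sequence and no evidence of binding.

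The windows below show the motif, in capitals, with the 20 bases on each side, for the 5 genes with the largest rises that hold it and for 3 further genes, written on the strand of the gene. All were read from TAIR10.1.
AT2G04050, chr2:1339592-1339703 (minus strand): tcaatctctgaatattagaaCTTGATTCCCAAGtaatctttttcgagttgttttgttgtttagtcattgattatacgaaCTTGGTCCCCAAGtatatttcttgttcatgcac
AT4G12735, chr4:7494311-7494435 (minus strand): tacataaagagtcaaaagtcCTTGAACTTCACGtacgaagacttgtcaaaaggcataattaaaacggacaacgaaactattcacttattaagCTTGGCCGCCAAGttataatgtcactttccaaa
AT5G24640, chr5:8436252-8436304 (plus strand): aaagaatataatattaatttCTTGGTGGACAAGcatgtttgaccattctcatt
AT2G03130, chr2:940554-940606 (plus strand): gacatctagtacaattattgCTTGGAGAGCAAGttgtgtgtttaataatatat
HSP23.5, chr5:20891033-20891085 (plus strand): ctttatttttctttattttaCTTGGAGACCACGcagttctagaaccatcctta
AT4G08555, chr4:5447910-5447962 (plus strand): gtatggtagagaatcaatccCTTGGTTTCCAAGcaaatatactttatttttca
UPOX, chr2:9254307-9254359 (plus strand): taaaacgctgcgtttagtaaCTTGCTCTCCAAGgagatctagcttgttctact
CYP81D8, chr4:17571851-17571903 (minus strand): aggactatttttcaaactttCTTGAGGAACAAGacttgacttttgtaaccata

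Most of these genes were nearly silent before induction. AT2G04050, which encodes a MATE efflux transporter, went from 0.184, 0.132 and 0.185 FPKM to 15.1, 12.6 and 16.2 FPKM (log2 difference 3.74 ± 0.11, adjusted p = 2.85e-07). AT4G12735 and AT5G24640 have no description in the table. AT4G12735 rose from 0.239, 0.00909 and 0.133 FPKM to 12.4, 15.2 and 13.1 FPKM (log2 difference 3.69 ± 0.12, adjusted p = 4.53e-07), and AT5G24640 from its columns' lowest values to 10.2, 9.96 and 14.7 FPKM. AT2G03130, annotated as a ribosomal protein L12 family protein, rose from 1.33, 1.05 and 1.02 FPKM to 13.5, 22.5 and 30.03 FPKM (log2 difference 3.36 ± 0.23, adjusted p = 3e-05). Of 313 tested genes annotated as ribosomal proteins it was the 1 that was called. AT4G08555, also without description, rose from 0.293 ± 0.0207 to 10.8 ± 1.78 FPKM.

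A family of proteins with the DUF295 domain, of unknown function, also held genes that rose. It was chosen after its values had been seen, so the shares given for it are descriptions. Of 12 tested members 5 rose, against 1.95% of all genes, and none fell. The motif stood before 5 of the 12 members and before 4 of the 5 that rose. The 4 are AT5G52930, AT5G54450, AT4G25930 and AT5G55150, and the last holds 2 copies that are 4 bases apart.
AT5G52930, chr5:21470223-21470275 (plus strand): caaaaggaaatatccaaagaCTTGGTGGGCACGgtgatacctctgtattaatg
AT5G54450, chr5:22109464-22109516 (minus strand): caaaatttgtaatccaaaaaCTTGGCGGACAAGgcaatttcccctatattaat
AT4G25930, chr4:13168029-13168081 (plus strand): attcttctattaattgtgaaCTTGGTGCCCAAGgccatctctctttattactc
AT5G55150, chr5:22383448-22383517 (minus strand): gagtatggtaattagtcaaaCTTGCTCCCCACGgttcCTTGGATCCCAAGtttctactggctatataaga

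AT5G52930 rose from 0.173, 0.16 and 0.105 FPKM to 6.48, 6.15 and 12.9 FPKM, and AT5G54450 from 0.00909, 0.00909 and 0.0927 FPKM to 2.91, 2.43 and 4.15 FPKM. The other members stayed low, with day 4 means of 1.76 FPKM for AT5G52940, 1.5 FPKM for AT4G25930 and 1.31 FPKM for AT5G55150. Day 4 replicate 3 was the highest library for 4 of the 5 genes and replicate 2 for AT5G55150. The CArG box, the element bound by MADS-domain proteins, was searched in the same windows as CCWWWWWWGG, with W for A or T. This form was found before 4.31% of all tested genes and 3.08% of those that rose, and before none of AP1, AP3, PI, AG, SEP1, SEP2 and SEP3. Forms that depart from these letters were not searched. Nothing follows from this about such forms inside the windows or about binding outside them.

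Several families of enzymes and transporters, some of whose members handle foreign or reactive compounds, held many of the genes that rose. These families were chosen after the values had been seen, and their counts are descriptions. Of 82 tested UDP-glycosyltransferases 13 rose (15.9%) and 2 fell, of 46 glutathione transferases 8 rose (17.4%) and 2 fell, and of 28 MATE transporters 6 rose (21.4%) and 1 fell. Among 105 cytochromes P450 8 rose and none fell, and among 88 ABC transporters 7 rose and 1 fell. The cytochromes P450 that rose include CYP707A1, DWF4 and ROT3, enzymes of hormone metabolism named below. Members were counted by family and not by the compounds they act on. The background over all genes was 1.95% rising. Family medians were near 0, at 0.03, 0.21, 0.12, -0.08 and 0.08 in the same order.

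Among glutathione transferases, GSTF2 rose from 3.97, 2.52 and 4.1 FPKM to 90.2, 38 and 92.5 FPKM (log2 difference 3.95 ± 0.31, adjusted p = 5.8e-05), with day 4 replicate 2 well below the others. GSTF7 rose from 0.191 ± 0.0512 to 12.5 ± 10.6 FPKM. UGT73B1, UGT73B2, UGT73B4 and UGT73B5, glycosyltransferases known from pathogen and oxidative stress, rose from day 0 means of 0.591, 0.179, 0.0642 and 0.287 FPKM to 12.8, 5.45, 4.23 and 3.86 FPKM. UGT73B1 and UGT73B2 are neighbours with similar sequences, as are UGT73B4 and UGT73B5, and the division of reads within each pair is uncertain. DTX1, a MATE transporter next to AT2G04050, rose from 0.0958 to 4.17 FPKM, and PEN3, an ABC transporter of pathogen defence, from 15.1 to 47.3 FPKM.

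Among families of transcription factors, also chosen after the values had been seen, 6 of 43 tested WRKY genes (14%) rose against 1.95% of all genes, among them WRKY33 (4.74 to 22.7 FPKM), WRKY40 (0.476 to 4.85 FPKM) and WRKY15 (22.9 to 57.7 FPKM), and WRKY13 fell (36.2 to 12.8 FPKM). Of 54 NAC genes 7 rose (13%), among them the mitochondrial stress factor ANAC013, ATAF1 (32.1 to 74.6 FPKM), ATAF2 (9.52 to 40.9 FPKM) and the boundary gene CUC1, and NAC025 fell from 7.26, 5.92 and 7.11 FPKM to 1.16, 1.58 and 1.99 FPKM. BCB, a blue copper protein of the cell surface, rose from 0.195, 0.503 and 1.0 FPKM to 34.4, 12.2 and 12.9 FPKM (log2 difference 3.61 ± 0.35, adjusted p = 0.000197), and SAG21, a late embryogenesis protein of mitochondria, from 0.122, 0.453 and 0.959 FPKM to 22.3, 12.8 and 12.3 FPKM (log2 difference 3.46 ± 0.25, adjusted p = 3.77e-05). In both genes day 4 replicate 1 was the highest library by far. AT1G78850, a mannose-binding lectin, rose from 0.50, 0.634 and 0.569 FPKM to 23.4, 19.1 and 17.8 FPKM (log2 difference 3.74 ± 0.11, adjusted p = 2.85e-07), and GRP3S, a glycine-rich protein, from 21.4, 17.3 and 27 FPKM to 184, 216 and 257 FPKM (log2 difference 3.27 ± 0.16, adjusted p = 4.38e-06). AT5G22430, of the Ole e 1 family of cell wall proteins, rose from 1.52, 3.18 and 3.94 FPKM to 52.1, 50.1 and 55.5 FPKM (log2 difference 3.84 ± 0.21, adjusted p = 6.91e-06).

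Of 18 tested genes of a hypoxia list 3 rose, against 1.95% of all genes, and none fell, and the list median was 0.18. HRE2 was one of these 3. HB1, a haemoglobin that binds nitric oxide, rose from 2.02, 1.82 and 1.48 FPKM to 9.83, 13.6 and 12.7 FPKM (log2 difference 2.23 ± 0.13, adjusted p = 1.04e-05), and PDC1, a pyruvate decarboxylase, from 0.234 to 1.55 FPKM, with a difference of 1.00 and no call when day 4 replicate 2 was left out. ADH1, a standard marker of fermentation, was at 23.3 FPKM at day 0 and 17.9 FPKM at day 4 (log2 difference -0.39 ± 0.16, adjusted p = 0.099). A further 4 members were higher at an adjusted p under 0.05 without the 2-fold minimum, SRO5 by 0.99 ± 0.15, the oxygen sensor gene PCO2 by 0.86 ± 0.23, RBOHD by 0.56 ± 0.092 and the sucrose synthase gene SUS1 by 0.28 ± 0.075. In the same way 3 were lower, ACHT5 (-0.73 ± 0.16), RAP2.3 (-0.56 ± 0.10) and LBD41 (-0.37 ± 0.09). This adjusted p was passed by 27.3% of all genes.

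Several genes of sugar starvation varied widely among the day 4 libraries. On a list of senescence and sugar starvation 3 of 20 tested genes (BCAT2, TPS8 and SAG21) rose, against 1.95% of all genes. None fell, and the list median was 0.35. AtDRM2, a dormancy-associated gene, was at 41.2, 49.8 and 57.2 FPKM at day 0 and at 108, 589 and 150.4 FPKM at day 4 (log2 difference 2.09 ± 0.52, adjusted p = 0.0176). Day 4 replicate 2 held the highest value, and without day 0 replicate 1 the call was lost (adjusted p = 0.0622). SEN1, a dark-inducible gene, had 5.9, 37.1 and 1.35 FPKM at day 4 and was not called (log2 difference 1.63 ± 0.80, adjusted p = 0.163). ASN1 (1.24, 3.68 and 0.446 FPKM) and DIN10 (15.4, 27.6 and 9.87 FPKM) also had their highest value in day 4 replicate 2. BCAT2 rose from 0.798, 0.881 and 1.15 FPKM to 3.11, 5.85 and 3.24 FPKM. TPS8 rose from 22.9, 24.3 and 25.9 FPKM to 44.7, 69.9 and 41.3 FPKM (1.03 ± 0.17), with 0.80 when day 4 replicate 2 was left out and 0.98 without day 0 replicate 1. The part of this library in other results was measured by leaving it out, which gave 372 genes higher and 173 lower.

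Several genes of the late steps of anthocyanin synthesis fell. DFR and LDOX make the coloured core of the molecule, TT19 carries it to the vacuole, and UGT79B1 and UGT75C1 attach sugars to it. DFR fell from 6.29, 5.93 and 7.38 FPKM to 0.351, 0.255 and 0.328 FPKM (log2 difference -2.52 ± 0.12, adjusted p = 3.02e-06), and LDOX from 7.5, 7.18 and 7.51 FPKM to 0.437, 0.503 and 0.48 FPKM (log2 difference -2.51 ± 0.10, adjusted p = 1.07e-06). TT19 fell from 9.55, 8.7 and 10.7 FPKM to 0.886, 0.905 and 1.37 FPKM (log2 difference -2.38 ± 0.12, adjusted p = 5.51e-06). In each of these 3 genes the highest day 4 library was at most 1.37 FPKM and the lowest day 0 library at least 5.93 FPKM. UGT79B1 fell from 2.87 ± 0.244 to 0.31 ± 0.101 FPKM and UGT75C1 from 5.04 ± 0.439 to 1.87 ± 0.475 FPKM, the latter with -0.95 and no call when day 4 replicate 3 was left out. The other glycosyltransferase genes of the list, UGT78D2 and UGT78D1, were not called and differed by -0.17 ± 0.12 and 0.26 ± 0.077.

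Acyltransferases of the same pathway fell as well. AT1G03940, which attaches coumaric acid to anthocyanins, went from 7.38, 8.89 and 8.35 FPKM to 1.98, 1.75 and 1.89 FPKM (log2 difference -1.68 ± 0.10, adjusted p = 9.42e-06), AT1G03495 from 3.94 to 0.873 FPKM and AT5MAT, the malonyltransferase, from 1.95 to 0.223 FPKM. PAP2, the MYB factor that promotes the pathway, fell from 3.38, 2.53 and 3.04 FPKM to 0.362, 0.603 and 0.765 FPKM (log2 difference -1.34 ± 0.14, adjusted p = 0.000322), and its relative PAP1 and the bHLH partner TT8 did not pass the filter. The early steps shared with flavonols did not reach the 2-fold minimum. CHS had 277 FPKM at day 0 and 242 FPKM at day 4 (log2 difference -0.19 ± 0.18, adjusted p = 0.455), and CHI had 88 and 92.8 FPKM. F3H differed by -0.41 ± 0.14 (adjusted p = 0.0582), and TT7, the flavonoid 3'-hydroxylase, was lower by less than 2-fold (log2 difference -0.59 ± 0.13, adjusted p = 0.0122). FLS1, which makes flavonols, had 148 and 134 FPKM. MYB11, which promotes flavonol synthesis, rose from 2.29, 2.88 and 3.91 FPKM to 13.3, 10.9 and 14 FPKM (log2 difference 1.78 ± 0.15, adjusted p = 9.02e-05). Over the 17 tested genes of the list 6 fell and 1 rose, against 0.777% and 1.95% of all genes.

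Genes of the cold and dehydration response fell in part. COR15A, a chloroplast protein that protects membranes, went from 19.9, 25.1 and 26.1 FPKM to 3.92, 4.1 and 5.7 FPKM (log2 difference -2.15 ± 0.14, adjusted p = 1.89e-05), and COR15B from 25.8 ± 5.59 to 9.24 ± 2.85 FPKM. COR15A and COR15B are tandem copies, so their reads may have been shared. KIN2, whose neighbour KIN1 has a similar sequence, fell from 367, 416 and 494 FPKM to 167, 205 and 188 FPKM (log2 difference -1.18 ± 0.11, adjusted p = 0.000179), and COR78 from 7.51 ± 0.982 to 2.57 ± 1.16 FPKM (log2 difference -1.30 ± 0.22, adjusted p = 0.00366). The call of COR78 was lost in the fit on all 11 libraries (adjusted p = 0.117). AT4G30650, a small membrane protein responsive to low temperature and salt, fell from 229, 200.1 and 215 FPKM to 79.7, 84.4 and 91 FPKM. CBF3, a factor that switches these genes on, differed by -0.74 ± 0.15 at a day 0 mean of 4.19 FPKM, and COR47 by 0.82 ± 0.10, both below the minimum. RD28, an aquaporin, rose from 1.85 ± 0.211 to 9.84 ± 1.4 FPKM (1.92 ± 0.11). In all, 4 of 18 tested genes fell and 1 rose, against 0.777% and 1.95% of all genes.

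The falls of AT5G52390 and AT4G17990 were the 2 largest, ahead of DFR. AT5G52390, annotated as a PAR1 protein, went from 5.04, 9.69 and 10.7 FPKM to 0, 0 and 0.0545 FPKM (log2 difference -3.16 ± 0.23, adjusted p = 3.59e-05), and 2 of its 3 day 4 libraries are listed at 0. AT4G17990, without description, fell from 33.7, 30.5 and 29 FPKM to 4.17, 3.71 and 4.28 FPKM (log2 difference -2.67 ± 0.081, adjusted p = 3.09e-07). CDEF1, a cutinase, fell from 18.1, 14.7 and 12 FPKM to 2.44, 2.26 and 2.8 FPKM (log2 difference -2.17 ± 0.14, adjusted p = 1.61e-05), MCT2, an RNA-binding protein related to MEI2, from 12.1 ± 1.17 to 3.43 ± 0.475 FPKM, and AT3G56360 from 17.2 ± 0.987 to 4.24 ± 1.65 FPKM. AT3G05730, a defensin-like gene, and AT3G16670, of the Ole e 1 family, varied widely between libraries. They had 20.3, 35.2 and 49.3 FPKM and 21.1, 32.7 and 48.8 FPKM at day 0, and 3.1, 7.36 and 12.2 FPKM and 6.97, 3.59 and 11.1 FPKM at day 4, and both lost the call in the fit on all 11 libraries. AT3G20900 is listed at 0 in all day 4 libraries and had 4.52, 4.32 and 0.721 FPKM at day 0, where replicate 3 was far below the others.

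Part of the falls concerned a copy of the mitochondrial genome. Chromosome 2 of Arabidopsis carries a long insertion of mitochondrial DNA near its centromere, and reads from both origins can match either. Of the tested genes, 45 had at least 50% of their 31-base words also in the mitochondrial genome of the reference, and all lay at chr2:3239693-3503476. Of these, 11 fell and 1 rose, against 0.777% and 1.95% of all genes. A negative difference was found in 39, and the median was -0.63. AT2G07774 fell from 6.52, 5.73 and 6.29 FPKM to 0.414, 0.468 and 0.141 FPKM (log2 difference -2.43 ± 0.13, adjusted p = 6.65e-06), with 93.3% of its words shared, and AT2G07739 from 6.58, 4.27 and 4.37 FPKM to 0.665, 1.13 and 0.405 FPKM (log2 difference -1.81 ± 0.19, adjusted p = 0.000289), with 100% shared. AT2G07674 was the 1 that rose, from 7.5 ± 3.2 to 15.7 ± 3.43 FPKM. Whether these values stem from nuclear or mitochondrial transcripts cannot be told apart, and the 11 genes make up part of the 143 that fell.

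A few RNAs that are not messenger RNAs were also called, in libraries made from total RNA. AT2G01021, next to ribosomal RNA genes on chromosome 2, fell from 3114, 878 and 1407 FPKM to 443, 565 and 664 FPKM (log2 difference -1.51 ± 0.38, adjusted p = 0.0199), and day 0 replicate 1 was far above the other libraries. Without day 4 replicate 1 its adjusted p was 0.0679. The snoRNA AT3G47348 fell from 6.18, 19.5 and 8.12 FPKM to 2.83, 2.98 and 0 FPKM and lost the call without day 0 replicate 2 (adjusted p = 0.063). TAS3, a precursor of small RNAs against the polarity genes ETT and ARF4, fell from 40.00 ± 9.94 to 18.5 ± 3.84 FPKM, and a second precursor of such RNAs, AT5G57735, rose from 5.97 ± 0.456 to 14.3 ± 2.1 FPKM. ETT and ARF4 themselves differed by 0.23 ± 0.062 and 0.26 ± 0.062. The precursor MIR166a fell from 3.41 ± 0.682 to 0.82 ± 0.77 FPKM. Of its targets among HD-ZIP genes, REV, PHB and PHV differed by -0.23 ± 0.061, 0.30 ± 0.06 and 0.11 ± 0.091. ATHB8 and ATHB15 differed by 0.39 ± 0.094 and -0.21 ± 0.074.

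Among genes of auxin, the GH3 enzymes that join auxin to amino acids were called in both directions. GH3.3 rose from 7.91, 9.03 and 9.55 FPKM to 40.2, 41.3 and 45 FPKM (log2 difference 2.14 ± 0.08, adjusted p = 1.05e-06), BRU6 (GH3.2) from 6.04 to 28.3 FPKM and WES1 (GH3.5) from 17.6 to 61.6 FPKM. DFL1 (GH3.6) and GH3.9 fell, from 47.3 to 20.5 FPKM and from 7.74 to 3.38 FPKM. Of 11 tested members 5 rose and 2 fell, against 1.95% and 0.777% of all genes. IAA2, an early auxin response gene, rose from 5.86, 6.23 and 5.78 FPKM to 16.3, 13.4 and 15.7 FPKM (log2 difference 1.21 ± 0.085, adjusted p = 3.2e-05), and IAA29 fell from 2.67, 3.06 and 2.45 FPKM to 0.503, 0.56 and 0.521 FPKM (log2 difference -1.28 ± 0.12, adjusted p = 0.000157). The auxin response factor MP was higher by 0.48 ± 0.079, and DRNL, which marks organ founder cells, by 0.85 ± 0.11, both below the minimum. Against the same shares of all genes, 2 of 32 genes of the auxin list rose and 1 fell, with a median of 0.22.

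Genes of cytokinin response were lower in part. The type-A response regulators ARR15 and ARR16, which report cytokinin signalling, fell from 13.6, 12.9 and 11.6 FPKM to 4.96, 6.18 and 5.75 FPKM (log2 difference -1.05 ± 0.095, adjusted p = 0.000129) and from 5.96, 5.14 and 3.08 FPKM to 2.27, 0.895 and 2.41 FPKM (log2 difference -1.02 ± 0.26, adjusted p = 0.0202). Left out in turn, day 4 replicate 1 ended the call of ARR15 (-0.98), and day 0 replicates 1 and 2 and day 4 replicate 2 each ended that of ARR16 (-0.86, -0.95 and -0.74). ARR4, ARR6, ARR7 and ARR9 differed by -0.88 ± 0.13, -0.87 ± 0.18, -0.61 ± 0.12 and -0.68 ± 0.14, below the minimum. ARR5 and ARR8, of the same type, differed by -0.09 ± 0.20 and -0.21 ± 0.072 and did not pass the adjusted p. The list had 2 of 17 genes lower, against 0.777% of all genes, none higher and a median of -0.48. Outside the list, and picked after their values had been seen, LOG3 and LOG5, which release active cytokinin, rose from 0.944 to 5.0 FPKM and from 70.2 to 171 FPKM. Their relatives on the list were not called. LOG7 differed by -0.72 ± 0.083, and LOG1 and LOG4 by -0.17 ± 0.11 and 0.18 ± 0.077.

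For gibberellin, GA2OX2, which inactivates the hormone, rose from 10.9, 12.3 and 10.6 FPKM to 22.4, 25.7 and 27.7 FPKM (log2 difference 1.10 ± 0.091, adjusted p = 8.19e-05), and the receptor GID1B from 12, 12.7 and 12.4 FPKM to 29.96, 33.6 and 29.3 FPKM (log2 difference 1.25 ± 0.069, adjusted p = 6.91e-06). GA20OX1, an enzyme of synthesis, differed by -0.82 ± 0.083. Of 18 tested genes of the gibberellin list 2 rose and none fell, against 1.95% and 0.777% of all genes. The list median was -0.03, with 1 more higher and 6 lower at an adjusted p under 0.05 without the minimum. DWF4 (10.3 to 28.1 FPKM), BR6OX2 (7.19 to 21 FPKM) and ROT3 (2.0 to 6.21 FPKM), which encode enzymes of brassinosteroid synthesis, also rose. They were picked after their values had been seen, and the other genes of that pathway were not tallied. In the jasmonate list JAZ1, a repressor of the response, rose from 8.06, 8.19 and 12.5 FPKM to 37.3, 19.98 and 20.3 FPKM (log2 difference 1.31 ± 0.24, adjusted p = 0.00477), and AOC3, an enzyme of synthesis, from 6.18, 5.9 and 7.13 FPKM to 16.9, 15.4 and 11.6 FPKM, with 0.96 and no call when day 4 replicate 1 was left out. The list had 2 of 25 genes called, against 2.73% of all genes. For abscisic acid, CYP707A1, which breaks the hormone down, rose from 4.39, 4.46 and 4.83 FPKM to 14.5, 13.5 and 14.6 FPKM (log2 difference 1.45 ± 0.074, adjusted p = 5.21e-06), and the factor ABI5 from 3.1 ± 0.0606 to 7.92 ± 0.754 FPKM. Its relative CYP707A2 differed by -0.89 ± 0.16, below the minimum. CYP707A1 and ABI5 were the 2 of 18 tested list genes that rose, against 1.95% of all genes, and none fell. A further 3 were higher and 6 lower at an adjusted p under 0.05 without the minimum, and the list median was -0.04. ACO4, of ethylene synthesis, rose from 2.93, 3.37 and 2.69 FPKM to 13.6, 6.11 and 10.2 FPKM (log2 difference 1.40 ± 0.22, adjusted p = 0.00257). It was the 1 gene called among 16 of the ethylene list, against 2.73% of all genes.

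**Figure D5:**
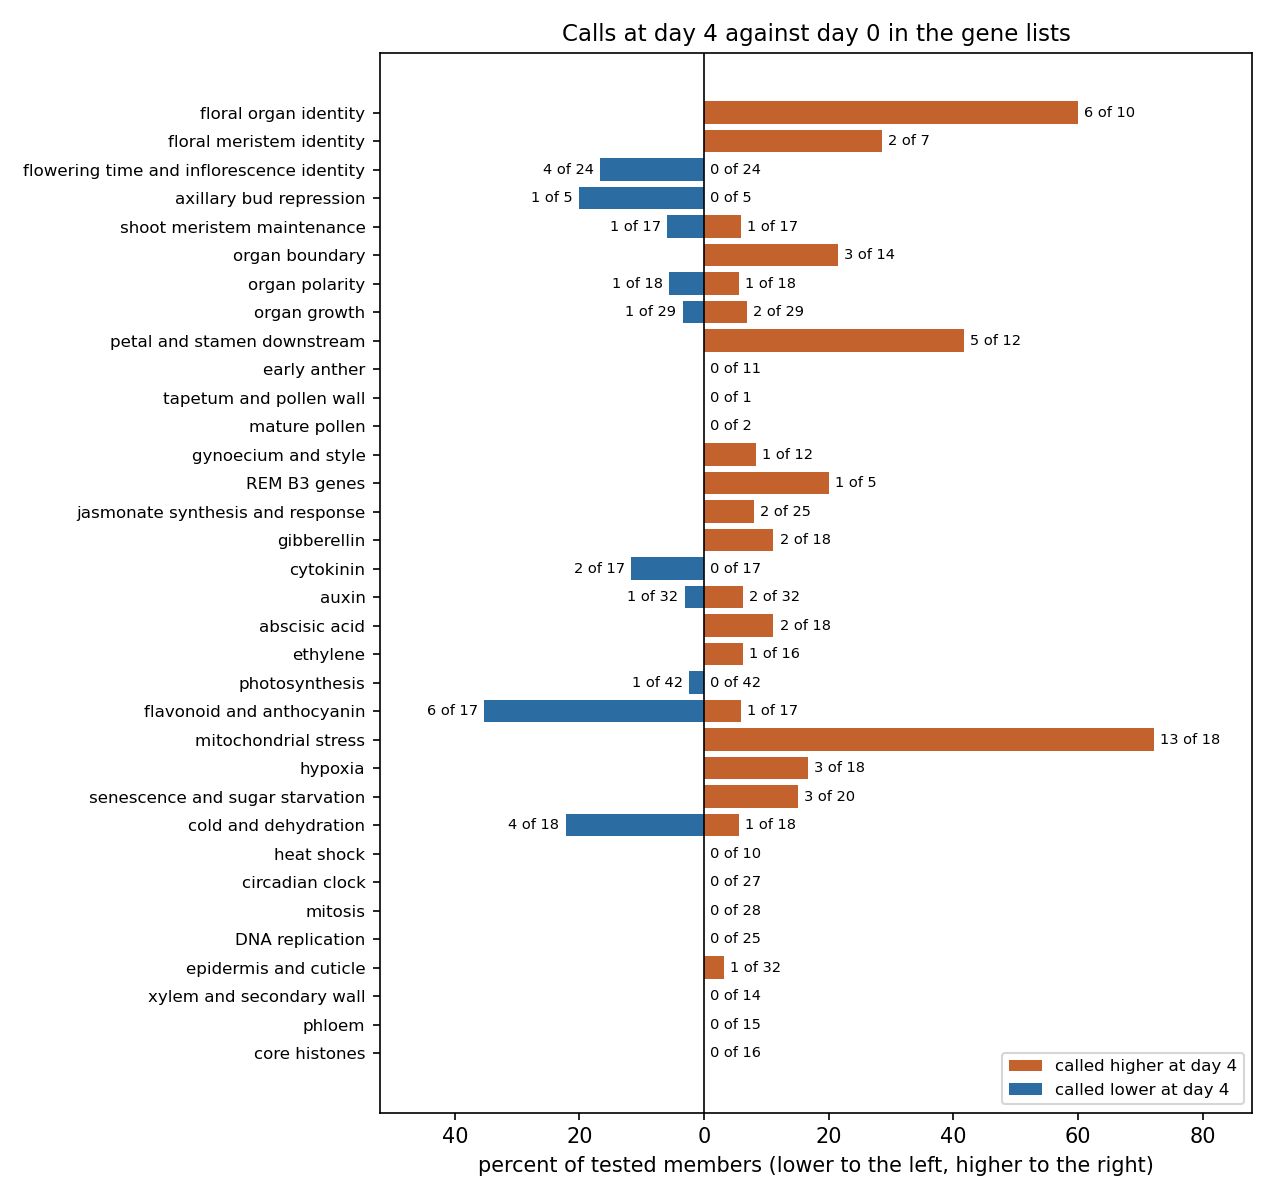
Percent of the tested members of each gene list called higher (orange, to the right) or lower (blue, to the left) at day 4, with the counts beside the bars. The mitochondrial stress list (13 of 18) and the organ identity list (6 of 10) have the longest bars to the right, and the anthocyanin list (6 of 17) the longest to the left.

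At the background of 2.73% called over all genes, a list of this size with no called gene is near the background. None of the 28 tested genes of mitosis, 25 of DNA replication, 16 core histones, 27 clock genes and 10 heat shock genes was called by limma. At an adjusted p under 0.05 without the 2-fold minimum, which 27.3% of all genes reached, 7 mitosis genes were higher and none lower, and 2 replication genes were higher and 9 lower. The core histones had 2 higher and 6 lower, the clock genes 5 higher and 8 lower, and heat shock genes 1 of each. Their list medians lay between -0.16 and 0.13.

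Markers of later flower parts were few and low. Of 16 tapetum and pollen wall genes 4 were in the table and 1 passed the filter, with summed levels of 17.9 to 21.3 FPKM at day 0 and 14.1 to 15.7 FPKM at day 4, nearly all of it from TKPR1 (14.4 FPKM at day 4). AMS and TDF1, defining genes of the tapetum, were at 0.0333 and 0.308 FPKM at day 4. Mature pollen genes had 2 of 14 tested, with sums of 5.75 to 6.35 FPKM at day 4. NZZ, which starts sporogenous tissue after AG, was at 0.0476 FPKM at day 4, and the 11 tested genes of early anthers had no call and a median of 0.10. ROXY1, needed for petals and anthers, was higher by 0.75 ± 0.12, below the minimum. At day 4 the organ identity genes were thus expressed while AMS, TDF1 and NZZ were near 0.

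Lists of leaf and vascular tissue held 1 called gene, at a background of 2.73% called over all genes. Xylem genes were at sums of 52.1 to 66.8 FPKM at day 0 and 50.5 to 56.8 FPKM at day 4, with no call among 14. Phloem genes were at 221 to 231 and 252 to 268 FPKM, with no call among 15, 4 higher and 1 lower at an adjusted p under 0.05 without the minimum. Of 42 photosynthesis genes, LHCB2.3, a chlorophyll-binding protein, fell from 60.7, 64.4 and 67.4 FPKM to 28.1, 32.7 and 32.6 FPKM (log2 difference -1.02 ± 0.074, adjusted p = 3.71e-05), with -0.99 without day 0 replicate 3 and -0.95 without day 4 replicate 1. A further 20 were lower without the minimum and none was higher, and the list median was -0.24. For both lists the background is the 27.3% of all genes that passed the adjusted p. Of 32 genes of the epidermis and cuticle, TRY, an inhibitor of leaf hairs, rose from 4.82, 6.65 and 5.56 FPKM to 16.4, 18.7 and 17.6 FPKM (log2 difference 1.48 ± 0.11, adjusted p = 3.55e-05). PDF1, a protein of the outer cell layer, was at 1696 and 3019 FPKM (0.84 ± 0.12), below the minimum. The part of such differences in tissue make-up in the calls above was not tested.

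The remaining genes with the largest differences in mean FPKM had high levels on both days. AT1G62480, a vacuolar calcium-binding protein, rose from 293, 256 and 244 FPKM to 541, 623 and 479.9 FPKM (log2 difference 1.05 ± 0.10, adjusted p = 0.000216), and the difference was 0.99 without day 0 replicate 3 and 0.95 without day 4 replicate 2. AT4G22490, a lipid transfer protein, fell from 934, 736 and 443 FPKM to 328, 273 and 387 FPKM (log2 difference -1.04 ± 0.24, adjusted p = 0.0138). It dropped below the minimum, to between -0.98 and -0.81, when day 0 replicate 1 or 2 or day 4 replicate 2 was left out.

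The levels of the called genes at days 2 (2 libraries) and 8 (3 libraries) are given as a description, since these values share a table and an induction series with those that made the calls. The genes that rose had median levels of 1.78, 4.87, 9.87 and 42.0 FPKM at days 0, 2, 4 and 8, and those that fell 9.66, 7.35, 3.40 and 1.83 FPKM. The day 2 mean lay between the means of days 0 and 4 for 326 of the 359 genes that rose and 124 of the 143 that fell. The day 8 mean lay beyond the day 4 mean for 282 and 99. It lay at or past the day 0 mean for 12 and 9. Single genes took different courses. AP3 had 37.7 FPKM at day 2 and 164 FPKM at day 8, beside 176 FPKM at day 4. AG went from 1.54 FPKM at day 2 to 18.9 FPKM at day 8. CUC1 had 30.8 and 24.2 FPKM, so that its mean was highest at day 4 and its day 8 mean was close to that of day 0. AT2G03130 also had its highest mean at day 4, with 5.79 FPKM at day 2 and 6.22 FPKM at day 8. BRC1 was at 23.9 FPKM at day 2 and 71 FPKM at day 8, above its day 0 mean of 63.4 FPKM. GSTF2 and BCB reached 1765 and 1079 FPKM at day 8.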

How the data were processed

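RNA-seq libraries of the 4 days of induction (11 libraries) were deposited as 1 table with a row per gene. Per the labels and methods, total RNA of pooled inflorescences was made into stranded libraries, reads were aligned with STAR to TAIR10, and the authors estimated FPKM with RSEM 1.2.22. Whether counting used strand is not given in the sources used here, so overlapping genes are uncertain. The deposited FPKM columns share nearly 1 distribution, with totals of 734615 to 734624 and sorted values that differ by a median of 0.0424%, so the authors had normalized them to each other, and this removes differences in the total amount of RNA. Read depth is unknown, and no counting interval was given. Deposited p-value and FDR columns hold the authors' test across days and were not used, and neither were their day means.

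Genes that reached 1 FPKM in 2 or more of the 6 libraries of days 0 and 4 were fitted with limma 3.58.1 in R 4.3.3 on log2(FPKM + 1), with a moderated variance that follows the mean level and Benjamini-Hochberg adjustment over all genes tested. Values after ± are SDs (n = 3) for FPKM and standard errors for log2 differences. Where 3 values are given for a day they are replicates 1, 2 and 3. Alternatives were the added constant, the filter, the libraries fitted, the moderation, the scaling, a replicate block and leaving out each library. Named genes were AP1, the 20 largest rises and 20 largest falls among called genes whose libraries did not overlap, the 5 largest in FPKM in each direction, and members of 34 gene lists; others are named as chosen after their values were seen. Members and lists were chosen with earlier results of these data known. Positions and sequences are from RefSeq TAIR10.1, in which 20867 of 20971 gene IDs matched, and summaries were made with Python 3.11.15, pandas 2.3.3 and numpy 2.4.6.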

Additional observations from a re-analysis of the deposited data

How the results depend on the processing

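The count of called genes depended mostly on how low values were treated. With 0.1 added in place of 1, 799 genes were called and 293 of them fell, against 506 that rose. With 5 added, 187 were called, 143 higher and 44 lower. With a filter of at least 5 FPKM in 3 libraries, 305 were called, 212 higher and 93 lower. Without a filter the total was 478, in fits on all 11 libraries and on the 8 of days 0, 2 and 4 it was 431 and 487, without moderation 398, and after median-ratio rescaling 500. The columns had already been normalized to each other, and the rescaling factors were 0.9963 to 1.003. That alternative could therefore hardly move the count. Leaving out each library in turn gave 472 to 545 genes, 333 to 377 higher and 135 to 173 lower. The call held without each single library for 274 of the 359 genes that rose and 92 of the 143 that fell. No gene was called in the opposite direction under any of these alternatives. Of 101 named genes, 60 were called under every alternative that tested them, 32 lost the call with 5 added, 15 without moderation and 9 in the fit on 11 libraries. AP3 differed by 9.75 with 0.1 added and by 5.14 with 5 added. With the replicate number as a block 499 genes were called, 357 higher and 142 lower. Replicates of the same number deviated together with correlations of 0.0785, -0.0562 and 0.0232, and those of different numbers with -0.139 to 0.134. These values show no pairing by number, though 3 libraries a day cannot exclude one.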

Other observations

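Some further called genes act on glucosinolates, the defence compounds of this plant family. They were picked after their values had been seen, the other genes of the pathway were not tallied, and nothing is said of the pathway as a whole. The indole glucosinolate methyltransferases IGMT2, IGMT4 and IGMT5 rose from 0.172 to 1.46 FPKM, 0.628 to 3.22 FPKM and 2.65 to 11 FPKM. CYP81F3, a cytochrome P450 that modifies these compounds, rose from 0.0655 to 3.21 FPKM (1.98 ± 0.14), and PEN2, a myrosinase that splits them, from 4.88 ± 0.812 to 17.1 ± 2.35 FPKM (1.62 ± 0.13). MYB28, which promotes the aliphatic branch of the pathway, fell from 16.6 ± 2.49 to 7.69 ± 1.41 FPKM (-1.02 ± 0.13). IGMT2 and IGMT4 are neighbours of similar sequence, and the division of reads between them is uncertain.

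Some called genes are not independent entries. The upstream open reading frame CPuORF27 has the values of TPPG (0.413 to 1.97 FPKM), and CPuORF33 has those of HB-1 (19.97 to 8.98 FPKM), so each pair counts as 2 genes in the totals. With 3 libraries a day, a single library can decide a call near the 2-fold minimum, as it did for CUC1, ATH1, ARR15, ARR16, TPS8 and others.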
